A study of Mus musculus with 7 samples.

Results

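Glycolysis and hypoxia response genes are 35 genes chosen by name, of which 35 were found among the 25965 genes of the deposited table. They comprise 4 glucose and lactate transporters, 9 genes of upper glycolysis, 7 of lower glycolysis, 2 lactate dehydrogenase subunits, 3 regulators of glycolysis and 10 genes of oxygen sensing and the hypoxia response. A filter on low values, a deposited log2 value above 0 in at least 3 libraries, kept 34 of them and 13997 genes in all, and Car9 did not pass it. Expression was measured by RNA-seq in the posterior end of female FVB/N mouse embryos at E9.5, cut off just behind the last visible somite and frozen. The tissue is called postsomitic mesoderm in the sample labels and presomitic mesoderm in the series title. Wild-type tissue (Smchd1 +/+) gave 3 libraries and tissue homozygous for the null allele MommeD1 of Smchd1 (Smchd1 MommeD1/MommeD1) gave 4, whereas the series design names 3. The allele is carried in the germline, and the labels name no treatment and do not say whether a library is 1 embryo or a pool. The p-values therefore measure the spread between these libraries, which may be technical.

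Glycolysis splits glucose into pyruvate and yields ATP without oxygen, and lactate dehydrogenase turns pyruvate into lactate, which leaves the cell through monocarboxylate transporters. When oxygen falls, prolyl hydroxylases stop marking the HIF alpha subunits for degradation. The stabilized HIF dimer then binds DNA at hypoxia response elements and raises transcription of glycolytic enzymes, glucose transporters, angiogenic factors and its own negative regulators. In the tail end of the vertebrate embryo, glycolysis is known to be active and graded along the axis, and mammalian embryos of this stage develop under low oxygen.

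Libraries held 19622596 to 23847381 reads in listed genes. Values called centred are the deposited log2 RPM minus the autosomal median of the library, where RPM is the reads of a gene scaled to a common library denominator. Smchd1 had 5572 to 6552 reads in wild-type and 1922 to 2372 in null libraries, with a centred change of -1.67 (limma adjusted p = 9.54e-05), so the genotype labels fit the gene. The 9 listed markers of presomitic mesoderm, among them Tbx6 and Msgn1, had reads in all 7 libraries. Libraries are lettered within their genotype, because their column names carry unexplained numbers and no sample number. A pair of libraries stood apart. Wild-type library B was the highest library for 35.0% and the lowest for 22.7% of all tested genes, with low tailbud and high neural tube and somite markers. Null library D was the highest for 17.1% and the lowest for 23.4% of all tested genes, and most of the glycolysis and hypoxia genes peaked in it. Values are therefore given with and without null library D.

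No gene of the group differed between genotypes at the threshold. With limma on centred values and Benjamini-Hochberg adjustment over all 13997 genes, 0 of 34 members were higher and 0 lower in null tissue at an adjusted p under 0.05, against 0.05% of all tested genes called higher and 0.00714% called lower (0.0572% in either direction). At an unadjusted p under 0.05, 0 members were higher and 1 was lower, against 7.29% and 6.71% of all tested genes (14.0% in either direction). The 1 was Slc16a1, which encodes the lactate transporter MCT1, with a change of -0.11 (SE 0.05, limma adjusted p = 0.352). On recovered whole reads, limma-voom called 0 members higher and 0 lower at an adjusted p under 0.05, against 7 and 1 of all 13997 tested genes. At an unadjusted p under 0.05 it called 0 members, and the share of all tested genes in that fit is not given here. In 0 members did the 2 genotypes separate without overlap, against 6.51% of all tested genes that lay higher and 6.24% that lay lower in all 4 null libraries than in all 3 wild-type ones. The members' median change was 0.0037, with 17 above and 17 below 0. Over all tested genes the median was -0.03, with 5952 above and 8045 below 0. Without null library D, the members' median was -0.11, with 9 members above and 25 below 0. Over all tested genes it was then -0.03, with 5889 above and 8108 below 0. Null library D was left out because most members peaked in it, so the lower median of the members follows from that choice. Without wild-type library B as well, a fit added after seeing the data, the members' median was -0.08. In 8 members (Hk1, Gpi1, Gapdh, Eno1, Pfkfb3, Bnip3, Mxi1 and P4ha1) the change was above 0 with all libraries and below 0 without null library D. The sign differed between these fits, in either direction, in 1181 of all 13997 tested genes. Without null library D, 0 members passed the adjusted threshold in limma, against 0.0286% of all tested genes higher and 0.00714% lower (0.0357% in either direction).

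**Figure D1:**
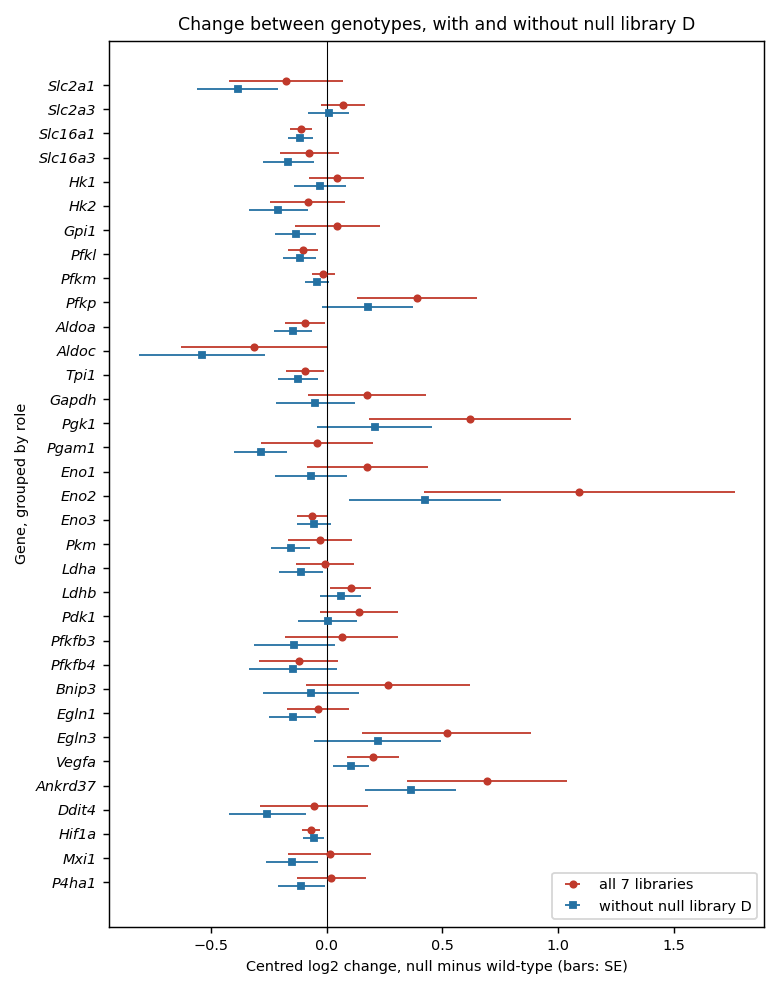
Centred log2 change between null and wild-type tissue (x axis) for the 34 tested members (y axis, by role), with all 7 libraries (circles) and without null library D (squares). Bars are limma standard errors. The widest bars belong to Eno2 (change 1.09, or 0.43 without null library D) and Pgk1 (0.62, or 0.21).

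The level of the members was compared per length of merged exon in GENCODE M21, in RPM per kb, over all 7 libraries. These levels are approximate, since the sources used here do not name the gene models behind the values. Slc2a1, the glucose transporter GLUT1, had the highest mean at 27.4 ± 7.54 (SD, n = 7), followed by Pkm, the muscle-type pyruvate kinase, at 26.1 ± 4.87 and Ldha, the lactate dehydrogenase A subunit, at 21.2 ± 3.38. Slc2a3, the glucose transporter GLUT3, followed at 18.2 ± 2.59 and the aldolase Aldoa at 17.4 ± 1.58. Slc2a1 and Pkm differed by less than the SD of either gene, as did Slc2a3 and Aldoa. At the other end were the hypoxia-induced carbonic anhydrase Car9 at 0.442 ± 0.226, the neuronal enolase Eno2 at 0.978 ± 1.29, the brain aldolase Aldoc at 1.43 ± 0.456 and Pfkfb4 at 1.54 ± 0.232. Without null library D, the mean of Eno2 was 0.494 ± 0.161 (SD, n = 6). Among isoenzymes, Aldoa lay above Aldoc, Pfkl and Pfkm above Pfkp, Hk2 above Hk1, and Eno3 (14.7 ± 1.81) above Eno1 (5.62 ± 2.13) and Eno2. The order of Eno3 and Eno1 rests on the merged exon length, 1.74 kb for Eno3 and 5.38 kb for Eno1. Before that division, Eno1 had 23.0 to 29.3 RPM and Eno3 21.95 to 30.3 in the 6 libraries other than null D. In null library D they had 55.7 and 26.95. The length was 13.4 kb for Pfkp, 3.34 kb for Pfkm and 4.13 kb for Gapdh. Gapdh reached only 4.36 ± 1.55, and Pgk1, Pgam1, Eno1, Ldha and Tpi1 likewise have processed copies in the mouse genome. The sources used here do not say how reads that match several copies were counted, so the levels of these genes are uncertain.

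**Figure D2:**
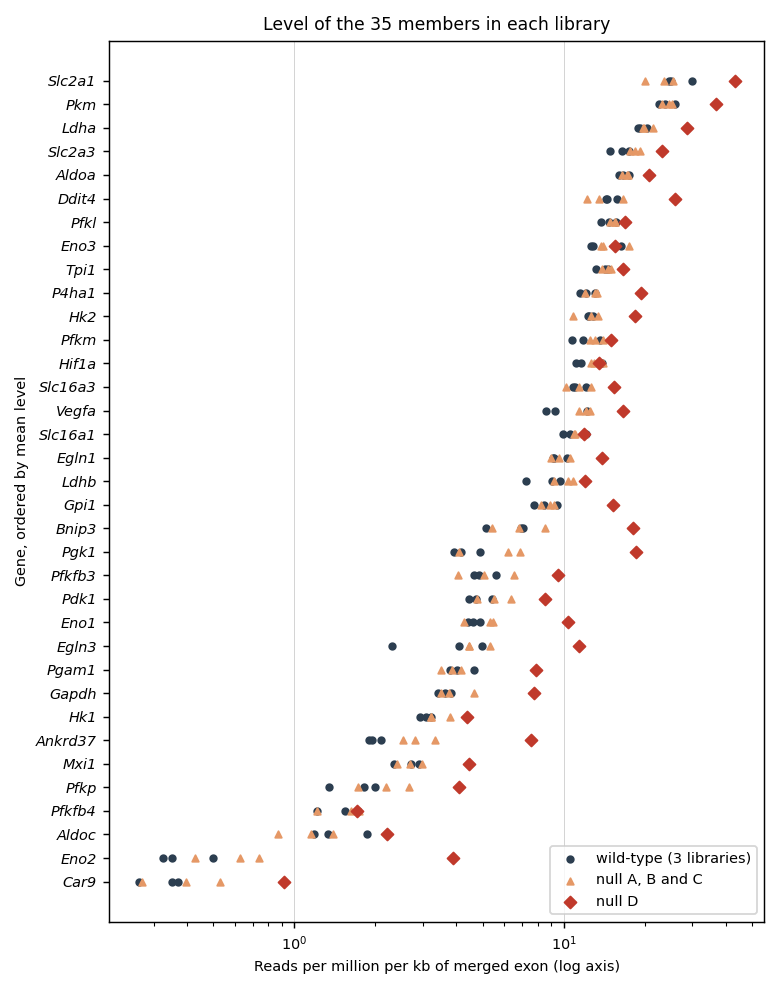
Level of the 35 members (y axis, ordered by mean) in RPM per kb of merged exon (x axis, log scale) in wild-type libraries (circles), null libraries A, B and C (triangles) and null library D (diamonds). Null library D lies to the right for most genes, with Eno2 at 3.88 against a mean of 0.494 in the other 6 libraries.

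None of the 4 transporters that bring glucose in and carry lactate out passed the adjusted threshold. Slc2a1 had centred values of 2.24, 2.86 and 2.68 in wild-type libraries A, B and C and of 2.43, 2.26, 1.95 and 3.05 in null libraries A, B, C and D. Its highest and lowest values were thus both in null libraries, and its change was -0.17 (SE 0.25, limma adjusted p = 0.715), or -0.38 without null library D. Slc2a3 ranged from 2.79 to 3.13 in wild-type and from 2.87 to 3.20 in null libraries, with a change of 0.07. Slc16a1 was the least variable transporter, at 1.55, 1.69 and 1.68 in wild-type and 1.56, 1.50, 1.53 and 1.53 in null libraries, where null library A lay just above wild-type library A. Slc16a3, which encodes the lactate exporter MCT4, ranged from 1.82 to 2.07 in wild-type and from 1.58 to 2.17 in null libraries, with a change of -0.08. Summed over the 4 transporters, the level was 309 to 337 RPM in the 6 libraries other than null D and 454 in null library D.

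Upper glycolysis runs from the phosphorylation of glucose to the triose phosphates. Hk2, a hexokinase, had centred values of 2.07, 2.36 and 2.42 in wild-type and 2.18, 2.22, 1.83 and 2.58 in null libraries, so the null range enclosed the wild-type range. Gpi1, glucose phosphate isomerase, had 1.74, 1.92 and 1.87 in wild-type and 1.85, 1.74, 1.54 and 2.43 in null libraries, with only null library D above the wild-type values. The liver-type phosphofructokinase Pfkl stayed between 2.50 and 2.77 and the muscle-type Pfkm between 1.32 and 1.45 over all 7 libraries. Aldoa spanned 1.81 to 2.12. These last 3 genes spread little between libraries, with changes of -0.10, -0.01 and -0.09. Pfkp, the platelet-type phosphofructokinase, had the largest positive change of the upper enzymes, 0.39 (SE 0.26, limma adjusted p = 0.446), or 0.18 without null library D. It had 0.55, 0.31 and 0.83 in wild-type and 0.83, 1.05, 0.34 and 1.58 in null libraries. Aldoc had the lowest change of all members, -0.31 (SE 0.32, limma adjusted p = 0.604), or -0.54 without null library D. It rested on 168 to 460 reads per library, with 460 in null library D and 398 in wild-type library B. On the centred scale wild-type library B was highest, at -1.25 against -1.35 in null library D. Hk1 and the triose phosphate isomerase Tpi1 had changes of 0.04 and -0.09.

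Lower glycolysis, from glyceraldehyde phosphate to pyruvate, held the widest differences between libraries. Pgk1, the X-linked phosphoglycerate kinase that makes the first ATP of the pathway, had 580, 575 and 749 reads in wild-type and 940, 1038, 544 and 2659 in null libraries. Its centred values were -0.97, -0.72 and -0.32 in wild-type and -0.25, -0.15, -0.99 and 1.18 in null libraries. Null library C was the lowest and null library D the highest of all 7. The change was 0.62 (SE 0.44, limma adjusted p = 0.465), or 0.21 without null library D, beside a median change of 0.15 over the 496 tested X-linked genes. Eno2 had 95, 108 and 160 reads in wild-type and 198, 233, 119 and 1170 in null libraries. All but null library D lay within 95 to 233 reads, and the change of 1.09 (SE 0.67, limma adjusted p = 0.42) was 0.43 (SE 0.33) without it.

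Gapdh, the glyceraldehyde phosphate dehydrogenase, had centred values of -0.37, 0.12 and 0.13 in wild-type and -0.09, 0.16, -0.33 and 0.81 in null libraries. Eno1, the widely expressed enolase, had 0.44, 0.86 and 0.80 in wild-type and 0.82, 0.74, 0.33 and 1.61 in null libraries. In both genes null libraries A, B and C overlapped the wild-type range, and null library D lay above the other 6. The changes of 0.18 in each were -0.05 for Gapdh and -0.07 for Eno1 without null library D. Pkm had 2.83, 3.04 and 3.05 in wild-type and 2.89, 2.88, 2.67 and 3.33 in null libraries, with a change of -0.03 (SE 0.14, limma adjusted p = 0.927), or -0.16 without null library D. The muscle enolase Eno3 went another way, at 0.63, 0.62 and 0.68 in wild-type and 0.53, 0.51, 0.73 and 0.56 in null libraries, with null library C highest. Without null library D, 1 member lay lower and 0 higher in all null than in all wild-type libraries, against 7.85% and 7.87% of all tested genes. It was Pgam1, a phosphoglycerate mutase. Its values were -0.99, -0.87 and -0.86 in wild-type and -1.12, -1.07, -1.39 and -0.22 in null libraries. The change was -0.04 over all libraries and -0.28 without null library D (limma adjusted p = 0.534).

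Pyruvate is reduced to lactate by tetramers of Ldha and Ldhb. Ldha had centred values of 1.88, 2.11 and 2.22 in wild-type and 1.99, 2.05, 1.84 and 2.37 in null libraries, with a change of -0.01, or -0.11 without null library D. Ldhb, the B subunit, had -0.26, -0.02 and -0.26 in wild-type and -0.19, -0.07, -0.10 and 0.05 in null libraries, with a change of 0.10, or 0.06 without it. Ranges overlapped in both genes. Among the regulators, Pdk1, the kinase that shuts pyruvate dehydrogenase, had 1.21, 1.26 and 1.43 in wild-type and 1.37, 1.53, 1.02 and 1.85 in null libraries. Pfkfb3, which makes the phosphofructokinase activator fructose 2,6-bisphosphate, had 1.21, 1.28 and 1.42 in wild-type and 1.21, 1.52, 0.75 and 1.98 in null libraries. For both kinases null library C was lowest and null library D highest. Pfkfb4, of the same enzyme family as Pfkfb3, had -1.12, -1.29 and -0.86 in wild-type and -1.07, -1.02, -1.62 and -1.13 in null libraries, and null library D was not raised. The changes of these 3 genes were 0.14, 0.07 and -0.12, and without null library D 0.0046, -0.14 and -0.15.

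Oxygen sensing and hypoxia targets were led by Hif1a, the oxygen-regulated subunit, whose change had the smallest SE of the tested members. It had centred values of 2.17, 2.25 and 2.26 in wild-type and 2.17, 2.15, 2.18 and 2.13 in null libraries, with a change of -0.07 (SE 0.04, limma adjusted p = 0.415). Egln1 and Egln3 encode prolyl hydroxylases that mark HIF alpha. Egln1 had 1.02, 1.20 and 1.26 in wild-type and 1.06, 1.15, 0.82 and 1.45 in null libraries. Egln3 had -0.75, -1.24 and -0.05 in wild-type and -0.49, -0.27, -0.62 and 0.73 in null libraries. It varied more than Egln1 in both genotypes, and its change was 0.52 (SE 0.36, limma adjusted p = 0.465), or 0.22 without null library D. The angiogenic growth factor Vegfa had 1.51, 1.34 and 1.54 in wild-type and 1.70, 1.51, 1.51 and 1.96 in null libraries, with a change of 0.20 (SE 0.11, limma adjusted p = 0.393), or 0.10 without null library D. The ankyrin repeat gene Ankrd37, a HIF target, had 181, 196 and 221 reads in wild-type and 289, 345, 231 and 744 in null libraries. These reads are not scaled to the depth of a library. On the centred scale the genotypes overlapped, with -2.65, -2.27 and -2.08 in wild-type and -1.95, -1.74, -2.22 and -0.66 in null libraries. The change was 0.69 (SE 0.35, limma adjusted p = 0.367), or 0.36 without null library D.

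Bnip3, a mitophagy receptor, had 995, 761 and 1077 reads in wild-type and 1035, 1300, 728 and 2622 in null libraries, with a change of 0.27 (SE 0.35, limma adjusted p = 0.699) that was -0.07 without null library D. Ddit4, an inhibitor of mTORC1, had centred values of 0.46, 0.93 and 0.89 in wild-type and 0.52, 0.76, 0.23 and 1.31 in null libraries. P4ha1, a collagen prolyl hydroxylase subunit, had 1.56, 1.70 and 1.87 in wild-type and 1.72, 1.65, 1.43 and 2.12 in null libraries. In Bnip3, Ddit4 and P4ha1 null library C was lowest and null library D highest, so the null libraries enclosed the wild-type ones. The change was -0.05 for Ddit4 and 0.02 for P4ha1, or -0.26 and -0.11 without null library D. Mxi1, a MYC antagonist, ranged from 0.11 to 0.44 in wild-type and from -0.01 to 0.73 in null libraries. Car9, below the filter, had 40 to 55 reads in wild-type and 42, 82, 54 and 135 in null libraries.

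**Figure D3:**
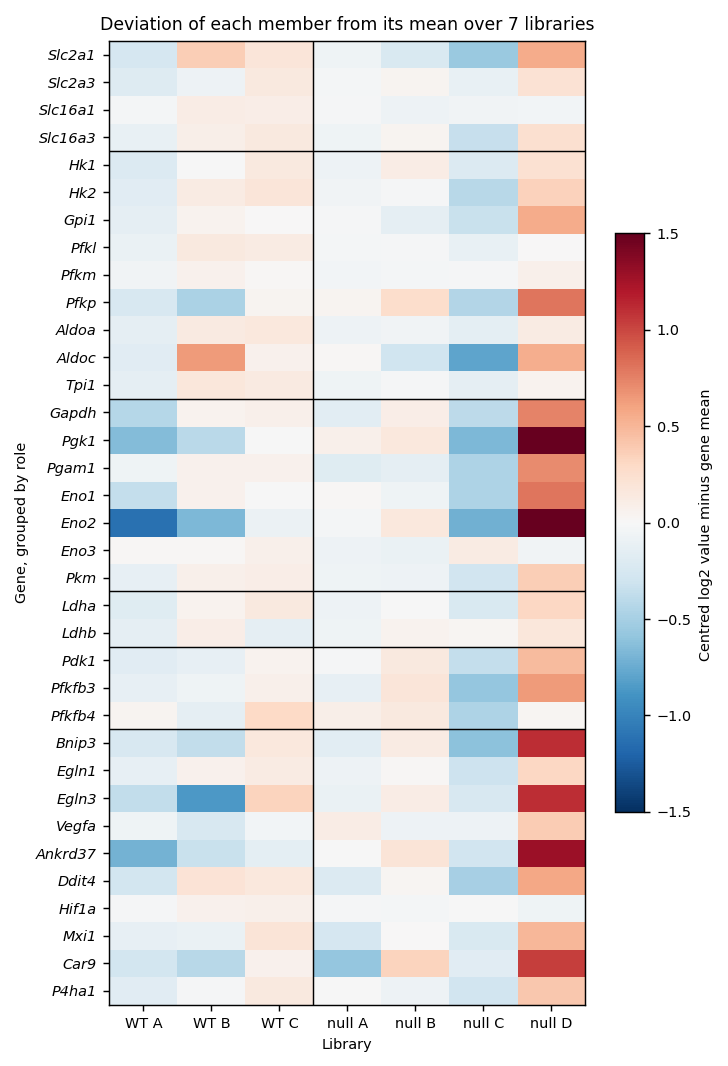
Centred log2 value of each member (rows, by role) in each library (columns) minus the mean of that gene over the 7 libraries, in colour (log2). Red cells fill most of the null D column, and 19 of the 34 tested members were lowest in null library C.

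Within the null genotype, most members shared their highest and lowest libraries. Of the 34 tested members, 26 were highest in null library D, against 17.1% of all tested genes. The median distance of null library D from the mean of the other 6 libraries was 0.45 on the log2 scale, against -0.02 over all tested genes. Above that mean were 31 members, against 6454 of all 13997 tested genes. Of the members, 16 lay above it by over 0.5 (6.68% of all tested genes) and 5 by over 1 (1.06%). The opposite end was null library C, the lowest library for 19 members, against 13.2% of all tested genes. Among the other 6 libraries, wild-type library C was highest for 15 members (13.2% of all tested genes), wild-type library B for 10 (37.7%) and null library B for 7 (16.3%). Null library D shares the numbers 4180 and 21 in its column name with wild-type library C. The members' median distance between these libraries was 0.30. Wild-type library B also carries 4180, and null libraries B and C share 4168 and 22. What these numbers mean is not given. These are descriptions of single libraries, and no test was applied to them.

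Eno2 had the largest distance, 2.87, which was a 7.32-fold higher level in null library D and ranked 6 among all tested genes. Pgk1 followed with 1.75 (3.36-fold, rank 19), and then Ankrd37 with 1.50 (2.82-fold, rank 40), Egln3 with 1.30 (2.46-fold, rank 69) and Bnip3 with 1.30 (2.46-fold, rank 73). The SD among the other 6 libraries was 0.50 for Eno2, 0.37 for Pgk1, 0.31 for Ankrd37, 0.41 for Egln3 and 0.29 for Bnip3. The next members were Eno1 with 0.94, Pfkp with 0.93, Gapdh with 0.87 and Pgam1 with 0.83. By role, the median distance was 0.87 in lower glycolysis, 0.58 in the oxygen and hypoxia genes, 0.55 in the regulators, 0.28 in the lactate dehydrogenase subunits and 0.27 each in the transporters and upper glycolysis. Summed over the 7 genes of lower glycolysis, null library D had 374 RPM, against 195 to 226 in the others.

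Several members had small or negative distances in null library D. The distance was -0.07 for Hif1a, -0.06 for Eno3 and -0.05 for Slc16a1, and it was 0.0021 for Pfkl, 0.03 for Pfkfb4, 0.06 for Tpi1, 0.09 for Pfkm and 0.14 for Aldoa. Several enzyme families were thus split by the size of the distance: Eno2 and Eno1 against Eno3, Pfkp against Pfkl and Pfkm, and Pfkfb3 against Pfkfb4. Egln3 (1.30) and Egln1 (0.36) also differed in distance, but both were highest in null library D, as was Pfkm. Ratios were computed within each library for 6 pairs of related genes. They do not depend on the scaling of a library and restate the difference of the same values. The ratio of Pfkfb3 to Pfkfb4 per length was 5.57 in null library D and 3.12 to 3.82 in the other 6 libraries. The ratio of Egln1 to Egln3 was 1.22 there and 1.83 to 4.01 in the others, and that of Slc16a1 to Slc16a3 was 0.774 there and 0.869 to 1.16 in the others. The ratios of Ldha to Ldhb (2.37, against 1.81 to 2.65), Slc2a1 to Slc2a3 (1.86, against 1.09 to 2.02) and Hk1 to Hk2 (0.238, against 0.236 to 0.298) stayed inside the range of the others. By genotype, these 6 ratios were 2.28 ± 0.32 and 2.11 ± 0.231 for Ldha to Ldhb, 1.65 ± 0.32 and 1.40 ± 0.338 for Slc2a1 to Slc2a3, and 0.245 ± 0.00818 and 0.268 ± 0.0271 for Hk1 to Hk2 (SD, n = 3 wild-type and n = 4 null). For Slc16a1 to Slc16a3 they were 0.957 ± 0.0424 and 0.943 ± 0.165, for Pfkfb3 to Pfkfb4 3.39 ± 0.373 and 3.95 ± 1.11, and for Egln1 to Egln3 2.79 ± 1.11 and 1.84 ± 0.425.

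The 5 members with the largest distance in null library D are shown with the 250 bases before their RefSeq start (GRCm38.p6, which is mm10), because hypoxia response elements are often found there. Capitals mark ACGTG or GCGTG, the core of that element, on either strand, so that CACGT and CACGC are the same motifs read from the other strand. The windows are Eno2 chr6:124769674-124769923 (minus strand), Pgk1 chrX:106186850-106187099 (plus strand), Ankrd37 chr8:45999851-46000100 (minus strand), Bnip3 chr7:138909507-138909756 (minus strand) and Egln3 chr12:54203875-54204124 (minus strand).
Eno2: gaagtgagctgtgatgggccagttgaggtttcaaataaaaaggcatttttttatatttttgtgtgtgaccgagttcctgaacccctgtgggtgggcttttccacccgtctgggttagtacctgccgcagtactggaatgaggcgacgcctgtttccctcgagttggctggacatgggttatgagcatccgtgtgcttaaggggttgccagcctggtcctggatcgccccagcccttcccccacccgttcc
Pgk1: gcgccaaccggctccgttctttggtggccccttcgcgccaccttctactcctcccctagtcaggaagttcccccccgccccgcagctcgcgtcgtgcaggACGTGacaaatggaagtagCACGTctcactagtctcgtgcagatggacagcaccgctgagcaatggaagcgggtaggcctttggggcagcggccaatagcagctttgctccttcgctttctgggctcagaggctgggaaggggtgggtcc
Ankrd37: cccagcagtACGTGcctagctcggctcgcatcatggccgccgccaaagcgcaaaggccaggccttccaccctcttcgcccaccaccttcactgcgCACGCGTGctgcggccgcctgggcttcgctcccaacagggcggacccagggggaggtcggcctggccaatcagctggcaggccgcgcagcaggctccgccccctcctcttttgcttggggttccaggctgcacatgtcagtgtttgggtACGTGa
Bnip3: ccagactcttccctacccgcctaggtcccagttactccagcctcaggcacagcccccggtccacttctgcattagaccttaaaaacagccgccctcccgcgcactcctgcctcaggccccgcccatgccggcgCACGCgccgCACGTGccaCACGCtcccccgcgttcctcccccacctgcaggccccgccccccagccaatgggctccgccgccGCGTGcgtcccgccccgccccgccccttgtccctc
Egln3: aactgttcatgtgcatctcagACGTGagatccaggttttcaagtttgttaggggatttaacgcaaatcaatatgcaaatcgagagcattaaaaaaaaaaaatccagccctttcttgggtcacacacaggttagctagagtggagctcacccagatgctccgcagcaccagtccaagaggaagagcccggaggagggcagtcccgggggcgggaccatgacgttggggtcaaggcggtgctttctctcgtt
Pgk1 has 2 matches to ACGTG, which begin 150 and 131 bases before the start. Ankrd37 has 2 matches to ACGTG and 2 to GCGTG, of which the latter pair overlap. Bnip3 has the palindrome CACGTG, which holds ACGTG on both strands, and 3 matches to GCGTG. Egln3 has 1 match to ACGTG, 229 bases before the start, and Eno2 has none in this window.

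Over windows from 250 bases before to 50 after the start, RefSeq matched 34 of 35 members with 50 windows, and Slc2a3 was not matched. ACGTG was found in 56% of the member windows and 19.6% of all 32851 windows, GCGTG in 54% and 32.4%, and ACGTGC, a longer form that contains ACGTG, in 34% and 5.91%. Base composition moved with this: the median GC content was 62.2% in member windows and 52.7% in all windows. ACGTG and GCGTG each contain a CpG, and the median number of CpG per window was 20 in member windows and 7 in all windows. The part of base composition in the shares was not tested. Tested members with ACGTG in a window (23) had a median distance of 0.47 in null library D and those without (10) 0.38. With ACGTGC the medians were 0.64 for 15 members and 0.42 for 18. Values from -0.07 to 1.75 among members with ACGTG and from -0.06 to 2.87 among those without overlapped widely, and a match is not a bound site.

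Other genes of the pathway, from fixed lists, also passed no adjusted threshold. Of 13 tested other glycolysis genes, among them less abundant isoenzymes, 0 passed; G6pc3, a glucose 6-phosphatase, had a change of 0.25 (limma adjusted p = 0.352) and Pfkfb2 0.27 (0.419). Of 10 other components of the HIF pathway 0 passed, with Hif3a, a further alpha subunit, at 0.53 (limma adjusted p = 0.352) and the HIF inhibitor Cited2 at -0.24 (0.352). Of 28 other hypoxia-induced genes 0 passed, with Angptl4, a lipase inhibitor, at -0.23 (limma adjusted p = 0.352) and the glycogen branching enzyme Gbe1 at 0.19 (0.362). Of 7 genes for the entry of pyruvate into mitochondria 0 passed, with the pyruvate dehydrogenase subunits Dlat at -0.14 (limma adjusted p = 0.364) and Pdha1 at -0.10 (0.377). Of 7 pentose phosphate genes 0 passed, with G6pdx, the X-linked glucose 6-phosphate dehydrogenase, at 0.15 (limma adjusted p = 0.352) and the transketolase Tkt at -0.13 (0.361). The median changes of these lists were 0.03, -0.07, 0.12, -0.07 and -0.10, in that order. At an unadjusted p under 0.05, they held 1, 1, 0, 0 and 1 higher and 0, 1, 1, 0 and 0 lower genes, against 7.29% higher and 6.71% lower among all tested genes.

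The other hypoxia-induced genes stood high in null library D as well. There 21 of 28 were highest, against 17.1% of all tested genes, with a median distance of 0.41 from the mean of the other 6 libraries. Bhlhe40, a circadian and hypoxia-induced repressor, had 223, 162 and 451 reads in wild-type and 209, 359, 146 and 1860 in null libraries. Ppp1r3c, a glycogen-targeting phosphatase subunit, had 130, 70 and 111 in wild-type and 105, 137, 90 and 709 in null libraries. In both genes null library D lay far above the other 6. The distance was 1.43 for the stress gene Ndrg1, 1.21 for the nuclear receptor Rora and 1.11 for the secreted stanniocalcin Stc2. The other lists showed no such shift, with medians of 0.01 for other glycolysis genes, -0.09 for HIF components, -0.05 for pyruvate entry and -0.07 for the pentose phosphate pathway. Highest in null library D were 2 of 13, 2 of 10, 0 of 7 and 1 of 7 of their genes, against the same 17.1%.

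**Figure D4:**
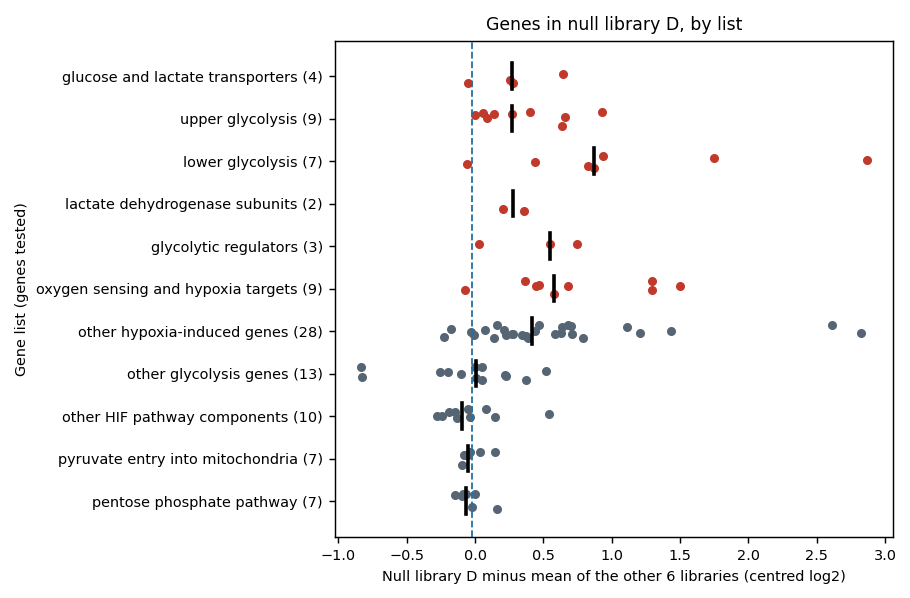
Distance of null library D from the mean of the other 6 libraries (x axis, centred log2) for single genes (points) of each list (y axis), with the list median as a bar and the median of all tested genes, -0.02, as a dashed line. Lower glycolysis (median 0.87) and the hypoxia lists (0.58 and 0.41) lie to the right, and the pentose phosphate pathway (-0.07) lies at the dashed line.

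Other marker lists also moved in null library D, and their part in the result was not tested. Immediate early genes had a median distance of 0.54 there, with 9 of 12 tested genes above the mean of the other 6 libraries, against 6454 of all 13997. Their values ran from -0.45 to 2.72, where Fos (2.69) and Ier3 (2.72) were the highest. Wild-type library C reached 0.50. Summed over the 14 listed immediate early genes, the level was 65.3 to 90.8 RPM in wild-type and 80.0 to 113 in null libraries, with 0 of 14 genes without reads. Lateral plate and intermediate mesoderm markers had a median of -0.51, with 2 of 7 tested genes above the mean of the other 6 libraries and values from -2.61 to 0.60, where Hand1 (-2.61) and Hand2 (-1.33) were the lowest. Null library B reached -0.80. Their summed level was 53.7 to 117 RPM in wild-type and 59.7 to 129 in null libraries, and 0 of the 7 in the table were without reads. Neural tube markers had a median of 0.66, below the 1.08 of wild-type library B, and summed levels of 50.3 to 124 in wild-type and 48.1 to 104 in null libraries, where Olig2 had 0 reads in null libraries B and C. In bulk tissue, fewer cells of a type and less RNA per cell cannot be told apart.

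**Figure D5:**
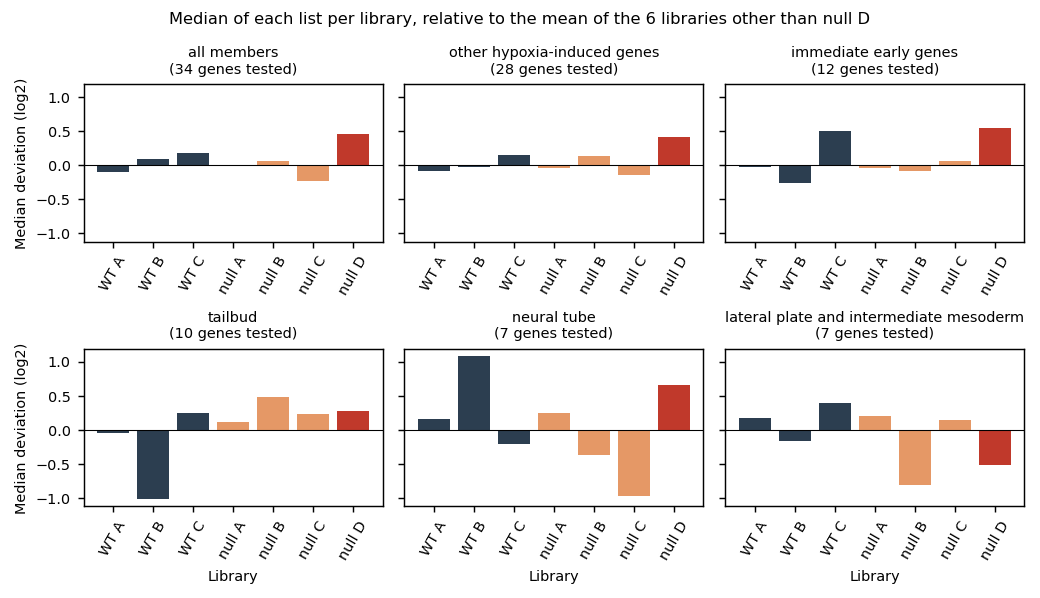
Median deviation of 6 gene lists (panels, y axis in centred log2) in each library (x axis), each gene taken relative to its mean over the 6 libraries other than null D. The members reach 0.45 and the other hypoxia-induced genes 0.41 in null library D, the immediate early genes 0.54 there and 0.50 in wild-type library C.

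Markers of other cell types that the piece could hold were also measured in null library D. The median distance was 0.60 for notochord, 0.49 for somite, 0.28 for tailbud, 0.22 for hindgut, 0.18 for presomitic mesoderm, -0.17 for endothelium and -0.29 for blood markers. Wild-type library B spanned wider values, with -1.02 for tailbud and 1.33 for somite markers. Targets of p53 had a median of 0.24 in null library D. Between genotypes, limma called 0 genes of the marker lists and the p53 list at an adjusted p under 0.05 over all genes. At an unadjusted p under 0.05, 5 of 8 hindgut, 4 of 8 notochord, 8 of 21 p53 and 2 of 10 tailbud genes were higher in null tissue, against 7.29% of all tested genes. Their median changes were 0.44, 0.56, 0.23 and 0.53. Wild-type library B was the lowest library for 5 of these hindgut, 3 notochord, 8 p53 and 8 tailbud genes, against 22.7% of all tested genes. Lateral plate and intermediate mesoderm had 1 of 7 higher. Presomitic mesoderm, neural tube, somite, blood, endothelium and immediate early genes had 0. The part of these differences in the members' values was not tested.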

How the data were processed

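RNA was extracted with a Qiagen micro kit, and the submitters' processing notes name bcl2fastq, TopHat2 2.0.12, edgeR and the build mm10. For the counting tool, its strand setting, reads that match several places and the gene annotation, no name is given in the labels or notes. The authors deposited a table of log2 RPM, the reads of each gene over a library total, for 25965 genes, per the file headers. Its columns name the genotype and no sample number. Whole reads could be recovered, with 100% of values under 1000 reads lying within 0.01 of a whole read and genes without reads listed at 0.9 read. The denominators were 59177338 to 68242680 reads, so 3 reads, the limit that a count of 0 allows, are 0.044 to 0.0507 RPM (counting error only). Libraries of 1 genotype differed by more than sampling noise (chi-square per degree of freedom 7.61 to 20.6), and each counts as 1 replicate.

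The 13997 genes passing the filter (log2 above 0 in 3 or more libraries) were tested with limma 3.58.1 in R 4.3.3 (moderated test with trend, no covariates, all 7 libraries, two-sided) on values centred on the autosomal median of each library, with Benjamini-Hochberg adjustment over all tested genes. The fit was tested on simulated data. Members, gene lists and tests were chosen with earlier results of these data known. Every member is accounted for. Values per library are given for up to 5 members per role by read level and for the largest changes, and outside the members the 2 genes with the smallest p of each pathway list. Genes named for their distance in null library D, the split of enzyme families and the promoters shown were chosen after their values were seen. The smallest p was not used to name genes of the marker lists, of which 4 are named for their distance in null library D. Other scalings, filters, a pseudocount, other priors, library weights, voom, a block and leaving out each library were alternatives, and 2 that combine null library D with another choice were added after seeing the data. Python 3.11.15 with pandas 2.3.3, numpy 2.4.6 and matplotlib 3.10.9 wrote the tables and drew the figures. Sequences come from RefSeq (GRCm38.p6).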

Additional observations from a re-analysis of the deposited data

Results flagged for a closer look

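The median deviation of the 7 pentose phosphate genes was 0.0103 in null library A, against -0.0726, -0.0748 and -0.0697 in null libraries B, C and D, so null library A lay far from the other 3 relative to their range. Each gene was taken relative to its mean over the 6 libraries other than null D. The value of null library A lay inside the wild-type medians, which ran from -0.09 to 0.17. The median SD of these genes among those 6 libraries was 0.10. The gap was 0.94 of the whole range of the 4 values, and chance passes the limit used, which is lower than this gap, in about 1 of 20 groups. No member of the glycolysis and hypoxia group, and none of the 6 ratios, had a library this far from the rest of the null group.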

How the results depend on the processing

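No member passed the adjusted threshold in any alternative, and the smallest adjusted p of a member was 0.135, with limma and a block on the last number of the column names. No paired analysis was possible because the columns carry no sample number. The block on the last number, whose meaning is not given, could be fitted and gave 7 genes higher and 1 lower in null tissue. With it, 6 members had an unadjusted limma p under 0.05, against 1 without the block (14.0% of all tested genes without the block). The share of all tested genes with the block is not given here, so the 6 are no result about the members. Over all tested genes, limma called 7 higher, against 15 with quantile normalization, 18 with cyclic loess, 12 with library weights and 4 on the deposited scale without null library D. Leaving out each library in turn gave 3 to 9, namely 3 without wild-type library A, wild-type library C or null library B, and 4 without null library D. Genes called lower numbered 1 throughout. The members' median change was 0.20 on the deposited scale. That scale is not centred, and the autosomal medians of the libraries ran from 3.78 to 4.19. The changes of all genes, members or not, therefore differ from the centred ones by the same amount. The 0.20 is thus no rise of the members in particular. With single libraries left out, it ranged from -0.11 without null library D to 0.10 without null library C. On the deposited scale 7 members had an unadjusted limma p under 0.05. The share of all tested genes on that scale is not given here, so the 7 are no result about the members. Of 680 pairs of member and alternative, 657 stayed within 1 SD between replicates. On the deposited scale 16 members had the other sign, through the shift that all genes share there. The number of members highest in null library D was 26 to 30 over 5 alternatives, with 14.2% to 31.9% of all genes. Only 3 wild-type libraries limit the precision, and the lowest depth of a tested member was 95 reads in a library (Eno2).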

Other observations

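Outside the members and the lists, null library D held further extremes, named here after their values were seen. Bhlhe41, a relative of Bhlhe40 and like it known to respond to hypoxia, had 45 to 69 reads in wild-type libraries, 34 to 70 in null libraries A, B and C and 710 in null library D. The heat shock gene Hspa1b had 39 to 108 reads in wild-type libraries, 30 to 57 in null libraries A, B and C and 855 in null library D. Stc1, a stanniocalcin also known to respond to hypoxia, had 748 reads there against 85 to 347 in the other 6. The largest distance of all was 4.03 for Prap1, with 258 reads there but 652 and 807 in wild-type libraries B and C. Hoxc12 (2.895, rank 5) and Hoxd12 (2.46, rank 11) also ranked high, with more reads in null library B than in null library D.

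Among the lowest distances in null library D were -4.52 for the Wnt ligand Wnt2, -3.93 for Lrrc17 and -3.78 for the matrix gene Postn, and the collagen Col3a1 had -3.08. Wnt2 had 22 reads there and 210 to 842 in the others. Col3a1 had 412 reads against 1366 to 4827, and in both genes null library B was the lowest of the other 6.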
